A study of Mus musculus with 42 samples.

Results

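The genes examined were those of the mitochondrial ribosomal proteins, chosen as every gene whose name on the array was Mrpl or Mrps followed by a digit. This gave 75 genes, 46 named for the large subunit (Mrpl) and 29 for the small subunit (Mrps), out of 19762 genes tested in at least 1 tissue. They were represented by 125 of 41174 probes, and a gene was read from its brightest probe, the same in all tissues. Of the 75 genes, 42 had 1 probe, 18 had 2 probes, 13 had 3 and 2 had 4. The rule reads gene names and no expression value, although the set was taken up with earlier results of these data known. All 75 were well above background on all 42 arrays, no member probe was saturated, and so all 75 entered every comparison. A few proteins of the mitochondrial ribosome carry other names on the array, such as Dap3 and Chchd1, and were kept apart as a separate list.

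The study compared Akt1+/- mice, which lack a single copy of the gene for the kinase Akt1 in all cells, with wild-type (Wt) littermates. All mice were female and on the C57BL/6 background, and the heterozygous line had been backcrossed to it. RNA of liver, skeletal muscle (quadriceps) and visceral fat was hybridised to single-colour Agilent mouse arrays. In each tissue there were 3 Wt and 3 Akt1+/- arrays at 8 weeks of age and 4 Wt and 4 Akt1+/- arrays at 35 weeks by the sample labels, whereas the methods give a somewhat higher age for the older mice. The sources used here do not say whether each array held RNA of a single mouse, so p-values measure the spread between these arrays. Levels are given as the log2 intensity minus the 75th percentile of the same array, so that 0 is the intensity of that percentile. Differences are limma estimates on this log2 scale, and a gene was called when its Benjamini-Hochberg adjusted p over all genes tested was below 0.05.

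Mitochondria translate the few mRNAs of their own genome on ribosomes of their own, and in mammals these mRNAs all encode subunits of the respiratory chain and of ATP synthase. The ribosomal RNAs come from mitochondrial DNA, whereas the proteins are encoded in the nucleus, made in the cytosol and imported. The small subunit reads the mRNA, and the large subunit joins the amino acids and passes the new chain through an exit tunnel that faces the inner membrane. Tissues that respire strongly, such as muscle, are rich in mitochondria. In bulk tissue, fewer cells of a type and less RNA per cell cannot be told apart.

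The 75th percentile of the arrays lay between 274 and 795 intensity units, and 56.5 to 68.6% of probes were well above background. Akt1 was lower in Akt1+/- mice by a log2 difference of −0.62 in liver (adjusted p = 0.0151) and −0.45 in fat (adjusted p = 0.0135). In muscle the difference of −0.59 did not pass (adjusted p = 0.0736, limma). Each tissue held its own markers: the summed level of 4 hepatocyte genes was 10.37 to 10.92 in liver and at most 5.38 in muscle and 3.18 in fat, that of 6 skeletal muscle genes was 11.83 to 12.23 in muscle and 3.94 to 6.65 in fat, and that of 5 adipocyte genes was 10.09 to 10.73 in fat and 7.24 to 8.34 in muscle. The 42 arrays lay on 12 slides scanned on 5 days. No scan day held both ages of a tissue. In liver no slide held both genotypes, and at 35 weeks none did in any tissue, so slide and genotype cannot be told apart there. Fat at 35 weeks was scanned on day 4 (Wt) and day 3 (Akt1+/-). At 8 weeks, 2 of the 3 Wt fat arrays were scanned on day 5, and the other on day 1 with the Akt1+/- fat.

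The sequences upstream of the genes are shown first, because the genes moved largely together between tissues and a few did not. Of the 75 genes, 66 had a promoter in the RefSeq table of the GRCm38.p6 build, with 72 entries of 250 bases before to 50 after the start. Short motifs were searched on both strands: GCATGCGC, a core of the site of nuclear respiratory factor NRF1; CCGGAAG, a core of the ETS family that includes GABP (NRF2); AAGATGGCG, a core of the YY1 site; and GGGGCGGGG, a GC box of the SP1 type. The NRF1 letters were found in 11.1% of the members' promoters and 2.71% of all 32851 promoters. The ETS letters were found in 33.3 and 8.86%, the YY1 letters in 9.72 and 1.4%, and the SP1 letters in 20.8 and 11.4%. A match describes letters in this window and does not show a bound site. The 100 bases before the start are shown, 5′ to 3′ on the strand of the gene and with motif matches in capitals, for Mrpl12, which had the largest difference between liver and fat; for Mrps6, Mrps36 and Mrps25, whose order of tissues differed from most; and for Mrpl22 and Mrpl32, which hold the NRF1 letters.
Mrpl12 (chr11:120484537-120484636, plus strand): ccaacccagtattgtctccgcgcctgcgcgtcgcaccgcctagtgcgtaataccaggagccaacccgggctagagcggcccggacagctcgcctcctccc
Mrps6 (chr16:92058236-92058335, plus strand): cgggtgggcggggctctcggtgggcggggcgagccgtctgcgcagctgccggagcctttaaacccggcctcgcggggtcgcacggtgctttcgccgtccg
Mrps36 (chr13:100744660-100744759, minus strand): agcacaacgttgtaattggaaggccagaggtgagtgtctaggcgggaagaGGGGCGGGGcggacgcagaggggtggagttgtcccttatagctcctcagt
Mrps25 (chr6:92184024-92184123, minus strand): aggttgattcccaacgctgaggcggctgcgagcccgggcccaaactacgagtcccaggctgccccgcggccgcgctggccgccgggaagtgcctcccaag
Mrpl22 (chr11:58171564-58171663, plus strand): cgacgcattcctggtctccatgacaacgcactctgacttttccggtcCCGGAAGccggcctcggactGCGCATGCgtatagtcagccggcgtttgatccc
Mrpl32 (chr13:14613038-14613137, minus strand): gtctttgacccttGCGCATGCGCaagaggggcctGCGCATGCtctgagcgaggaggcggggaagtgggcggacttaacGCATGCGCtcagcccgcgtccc
In these 100 bases, Mrps36 held the SP1 letters, Mrpl22 the NRF1 and ETS letters, and Mrpl32 the NRF1 letters at 3 places, at the first of them on both strands with overlap. The 100 bases shown of Mrpl12, Mrps6 and Mrps25 held none of the 4 motifs. Over the whole window searched, Mrps6 held the SP1 letters, and Mrpl12 and Mrps25 held none.

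Transcripts of the mitochondrial ribosomal proteins were lowest in visceral fat and highest in muscle for most genes. By the mean over the 14 arrays of a tissue, 68 of the 75 genes were lowest in fat, 6 in liver (Mrpl45, Mrps15, Mrps25, Mrps30, Mrps36 and Mrps6) and 1 in muscle (Mrpl20). Muscle was highest for 50 genes, liver for 24 and fat for Mrps6 alone. The mean level of the 75 genes on an array ranged from 2.20 to 2.53 in fat (median 2.37), from 3.03 to 3.31 in liver (median 3.10) and from 3.41 to 3.67 in muscle (median 3.48). These 3 ranges did not overlap.

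**Figure D1:**
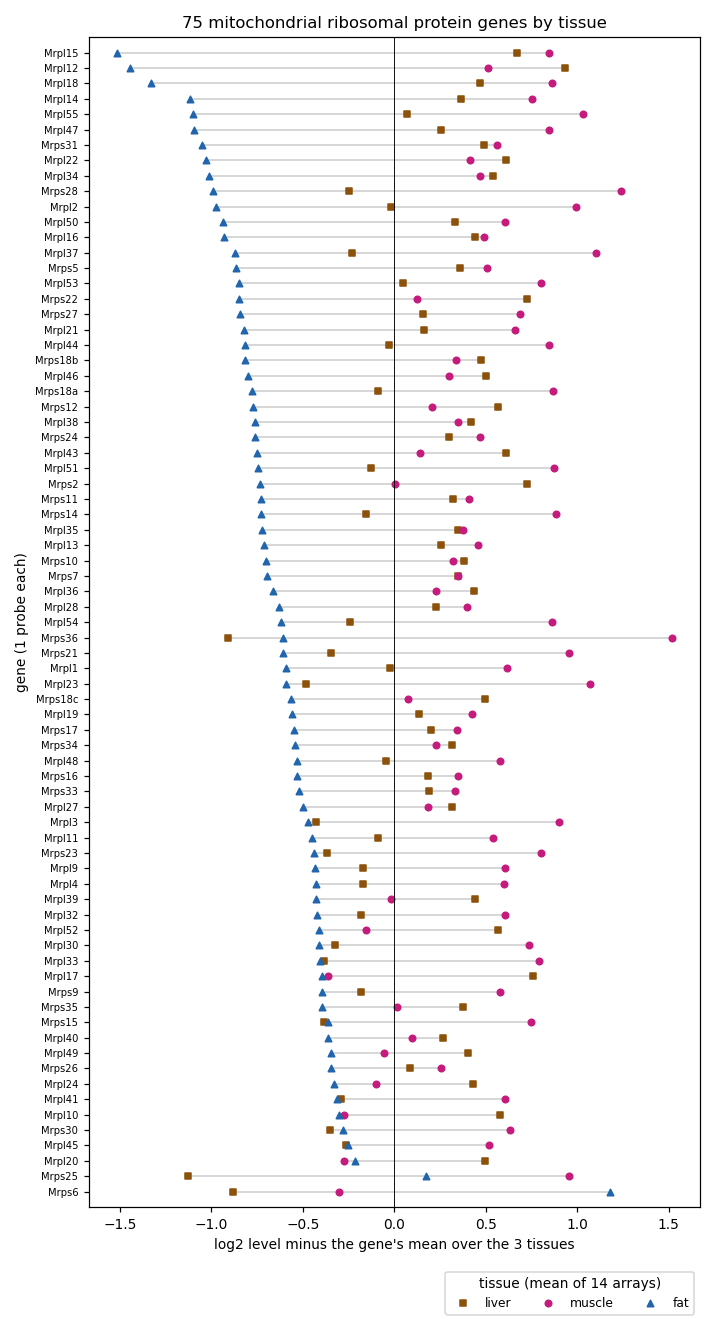
Log2 level of each of the 75 genes in liver, muscle and fat (mean of 14 arrays each) minus the gene's mean over the 3 tissues, with genes ordered by their position in fat. Fat lies to the left for 68 genes, whereas Mrps6, at the bottom, is highest in fat.

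**Figure D2:**
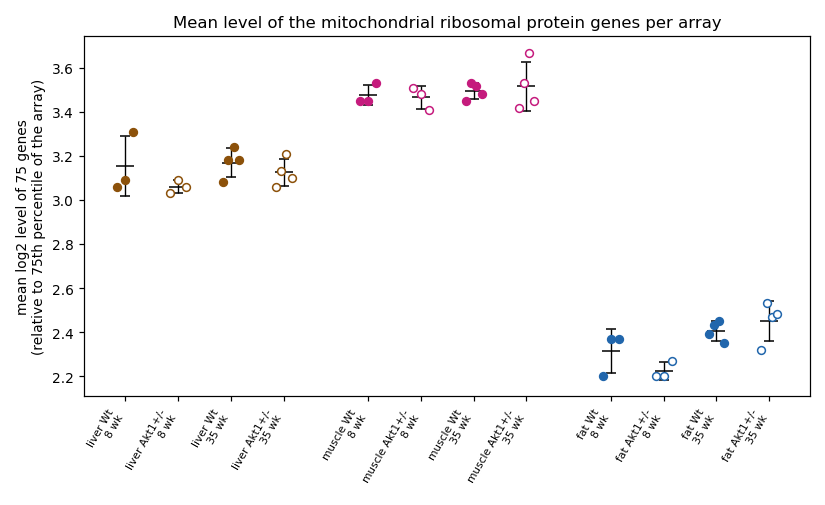
Mean log2 level of the 75 genes on each array, relative to the 75th percentile of the array, by tissue, genotype and age. Filled points are Wt and open points Akt1+/-, with bars at the group mean ± SD (n = 3 at 8 weeks and 4 at 35 weeks). All fat arrays lie between 2.20 and 2.53, below all liver and muscle arrays.

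Between muscle and fat, 72 of the 75 genes were called in the fit over all 42 arrays, 71 higher and 1 lower in muscle, with a median log2 difference of 1.12. Over all genes, 87.6% were called in this comparison, 43.9% higher and 43.7% lower, with a median of 0.01, so that the share called was near the background and the direction was not evenly split as it was over all genes. The genes Mrpl10, Mrpl17 and Mrpl20 did not pass, with differences of 0.02, 0.02 and −0.07. Between liver and fat, 68 genes were called, 65 higher and 3 lower in liver, with a median of 0.81, against 86.2% of all genes called, 44.2% higher and 42% lower. Between liver and muscle, 67 genes were called, 20 higher and 47 lower in liver, with a median of −0.21, against 85.8% of all genes called, 40.5% higher and 45.3% lower. The number of genes for which all 14 arrays of a tissue lay above all 14 of the other was 65 for muscle over fat (23.7% of all genes), 53 for liver over fat (20.6%) and 7 for liver over muscle (22.4%). In the opposite direction it was 1 for fat over muscle (23.5%), 2 for fat over liver (21%) and 30 for muscle over liver (25.2%).

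The size of these medians depended on the scaling, and their direction did not under the scalings tried. With each array scaled to its median, the median of all genes moved from 0.04 to 0.22 between liver and fat and from 0.01 to 0.19 between muscle and fat, and the members' medians were 0.99 and 1.30. With normexp background correction and quantile normalization they were 0.48 and 0.92, and 56 of 68 called genes were higher in liver than in fat, against 65 of 68. Within a single scan day, the median difference between liver and fat was 0.90 at 8 weeks (5 and 4 arrays, 72 of 75 genes above 0) and 0.78 at 35 weeks (8 and 4 arrays, 66 above 0). That between muscle and fat at 35 weeks was 1.06 (8 and 4 arrays, 74 above 0), and that between liver and muscle at 8 weeks was −0.25 (1 and 6 arrays, 25 above 0 and 50 below).

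Mrpl12, a protein of the stalk of the large subunit that recruits translation factors, had the largest difference between liver and fat. Its level had a lowest, median and highest value of 5.24, 5.49 and 5.80 over the liver arrays, 4.86, 5.03 and 5.58 over the muscle arrays and 2.89, 3.12 and 3.28 over the fat arrays. Fat did not overlap the other tissues, and liver and muscle overlapped. The log2 difference was 2.40 between liver and fat (SE 0.06) and 1.96 between muscle and fat (SE 0.06). The other stalk proteins did not share a tissue pattern: Mrpl10, to which the stalk is anchored, differed between liver and muscle by 0.86, whereas Mrpl11, Mrpl53 and Mrpl54 differed by −0.62, −0.75 and −1.09.

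Mrpl15 and Mrpl18, proteins of the large subunit with bacterial counterparts, followed Mrpl12 among the genes higher in liver than in fat. For Mrpl15 the difference was 2.18 for liver over fat and 2.37 for muscle over fat (SE 0.08 for both), with liver at 0.95, 1.66 and 2.06, muscle at 1.39, 1.69 and 2.23 and fat at −1.12, −0.61 and −0.21 (lowest, median and highest). For Mrpl18, which sits in the central protuberance, the differences were 1.79 and 2.17 (SE 0.05 for both), and its other 2 probes gave 1.75 and 1.99 and 1.8 and 2.15. Mrps28 of the small subunit differed between muscle and fat by 2.23 (SE 0.06) and between liver and muscle by −1.48 (SE 0.06), and its arrays did not overlap between any of the 3 tissues.

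Mrps6, a protein of the small subunit with a bacterial counterpart, went against the other genes. Its level was 2.45, 2.85 and 3.16 over the liver arrays (lowest, median and highest), 3.23, 3.43 and 3.59 over the muscle arrays and 4.21, 5.02 and 5.47 over the fat arrays, with no overlap between the tissues. The log2 difference was −2.04 between liver and fat (SE 0.12) and −1.48 between muscle and fat (SE 0.12), which is 4.12-fold and 2.79-fold higher in fat. Its second probe gave −2.04 and −1.63. The probe lies at chr16:92000837-92000896 of mm8, the build of the array's coordinates. Within a scan day, the difference between liver and fat was −1.87 at 8 weeks and −2.27 at 35 weeks. The fat arrays were also the most spread for this gene: at 8 weeks they were at 4.41, 5.37 and 5.47 (Wt) and 4.37, 4.31 and 4.80 (Akt1+/-), and at 35 weeks at 4.41, 5.46, 4.73 and 5.25 (Wt) and 4.21, 5.27, 5.44 and 5.45 (Akt1+/-). The groups of fat arrays overlapped.

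Mrps36, named for the small subunit but since known as a component of the alpha-ketoglutarate dehydrogenase complex, was highest in muscle. Its level was 0.64, 1.07 and 1.27 over the liver arrays, 3.22, 3.45 and 3.87 over the muscle arrays and 0.84, 1.47 and 1.67 over the fat arrays (lowest, median and highest). Muscle did not overlap the other tissues, which overlapped each other. The difference was −2.45 between liver and muscle (SE 0.06) and 2.16 between muscle and fat (SE 0.06), and the other probe gave −2.41 and 2.47. The difference of −0.29 between liver and fat was 0.06 by the other probe. The probe lies at chr13:101836245-101836304 (mm8).

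Mrps25 was lowest in liver, with −1.04, −0.50 and −0.13 over the liver arrays, 1.36, 1.53 and 1.75 over the muscle arrays and 0.06, 0.84 and 1.14 over the fat arrays (lowest, median and highest), without overlap between tissues. The difference was −2.07 between liver and muscle (SE 0.09), −1.30 between liver and fat (SE 0.09) and 0.78 between muscle and fat. Its second probe gave −0.46, −0.59 and −0.13, smaller and with the opposite sign between muscle and fat. The probe lies at chr6:92139634-92139693 (mm8).

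**Figure D3:**
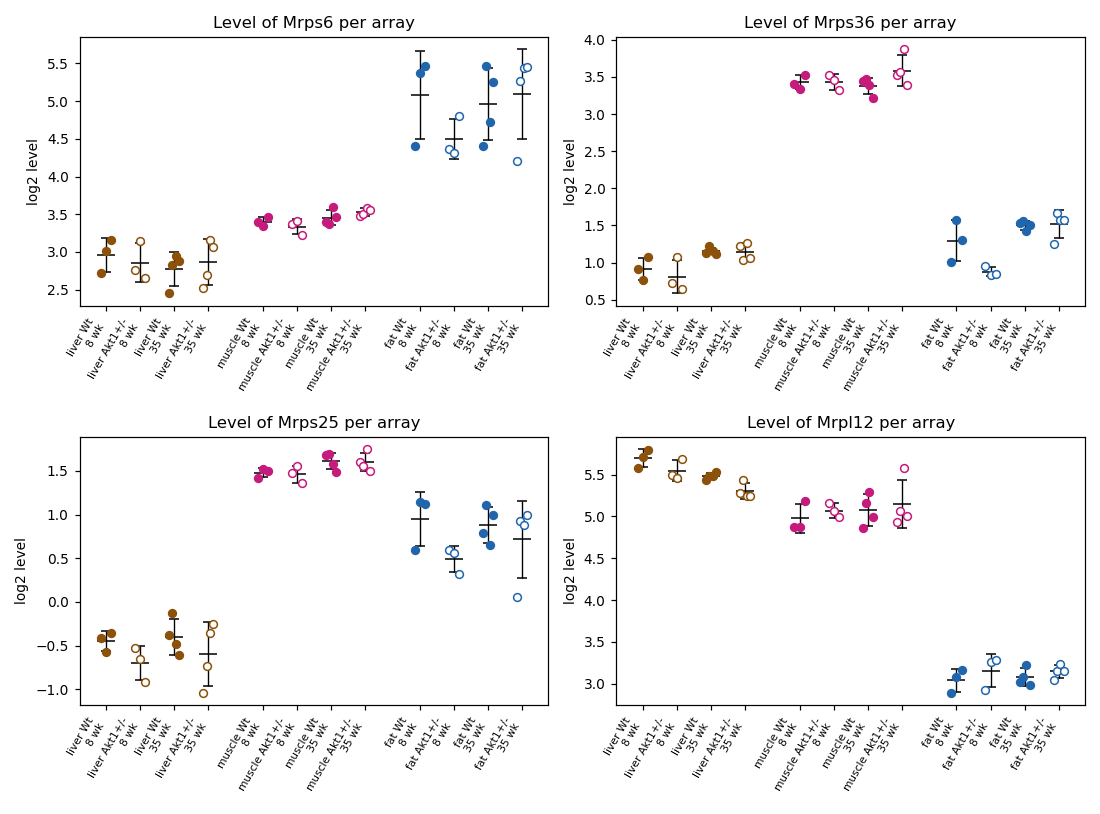
Log2 level of Mrps6, Mrps36, Mrps25 and Mrpl12 on each array relative to the 75th percentile of the array, by tissue, genotype and age. Filled points are Wt and open points Akt1+/-, with bars at the group mean ± SD (n = 3 at 8 weeks and 4 at 35 weeks). Mrps6 is highest in fat and Mrps36 in muscle, whereas Mrpl12 is lowest in fat.

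The genes that were higher in liver than in muscle were led by Mrpl17 (1.13, SE 0.06), Mrpl10 (0.86, SE 0.04) and Mrpl20 (0.79, SE 0.06). Mrpl17 lies at the tunnel exit, and its second probe differed by −0.60 in the opposite direction. Those that were lower were led by Mrps36 and Mrps25 (above) and Mrpl23, another tunnel exit protein, with −1.54 (SE 0.05). Of the called genes with several passing probes, all probes had the same direction for 17 of 25 between liver and muscle, for 22 of 26 between liver and fat and for 23 of 28 between muscle and fat. The smallest called differences between muscle and fat, 0.25 for Mrpl24 and 0.26 for Mrpl52, turned to −0.05 and −0.13 with normexp and quantile normalization.

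By role, the direction between tissues differed mostly between liver and muscle. The 46 large subunit genes had medians of −0.33 (liver over muscle), 0.88 (liver over fat) and 1.16 (muscle over fat), and the 29 small subunit genes −0.15, 0.75 and 1.02. The small subunit count follows the gene names, although structures place Mrps30 and Mrps18a in the large subunit. The 5 stalk genes had medians of −0.62, 0.88 and 1.48, the 6 central protuberance genes 0.10, 1.0 and 1.11 and the 8 tunnel exit genes −0.22, 0.84 and 1.12. The 44 genes with a bacterial counterpart (−0.18, 0.92 and 1.12) and the 26 found only in mitochondrial ribosomes (−0.20, 0.76 and 0.97) lay close to each other, and these groups were not tested against each other.

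The 3 paralogs Mrps18a, Mrps18b and Mrps18c, related proteins of which a ribosome holds different copies at different places, differed from each other in tissue pattern by the probes used. Between liver and muscle the differences were −0.95 for Mrps18a and 0.41 for Mrps18c, both called, and 0.13 for Mrps18b, which was not called. Between liver and fat they were 0.70, 1.32 and 1.05 for a, b and c, and between muscle and fat 1.65, 1.19 and 0.65. The other passing probe of Mrps18b gave 0.91 between liver and muscle, 1.46 between liver and fat and 0.545 between muscle and fat. The pattern of Mrps18b thus depended on the probe. Among the other members chosen for their roles, the decoding site protein Mrps12 differed by 1.36 between liver and fat and 0.99 between muscle and fat. Mrps5, which takes part in the accuracy of decoding, differed by 1.24 and 1.37, and Mrps22 and Mrps16, both mutated in human mitochondrial disease, by 1.57 and 1.0 and by 0.72 and 0.86. Mrpl44 differed by 0.78 and 1.65. Mrpl3, Mrpl45, which ties the tunnel exit to the inner membrane, and Mrps30 did not pass between liver and fat (0.04, 0.01 and −0.06) and were called between muscle and fat (1.38, 0.78 and 0.93). The 13 genes mutated in human mitochondrial disease had medians of 0.78 and 1.04.

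For comparison, the 35 subunits of respiratory complex I (Nduf genes), into which the mitochondrial ribosome's products are built, differed in the same direction with a larger step between liver and muscle. Their medians were −1.12 between liver and muscle, 0.89 between liver and fat and 2.02 between muscle and fat, and all 35 were called in the direction of the median in each. The ribosomal proteins of the cytosol, 85 genes, had medians of 0.07, 0.14 and 0.03, with 37 genes called higher and 24 lower in muscle than in fat. These lists are given side by side and were not tested against the 75 genes.

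Genes that work with the mitochondrial ribosome were mostly lower in fat as well. In muscle against fat, the counts called higher and lower in muscle were 8 and 0 of 8 ribosome components under other names, 16 and 1 of 19 assembly factors, 13 and 2 of 15 translation factors, 15 and 1 of 17 mitochondrial tRNA synthetases, and 7 and 1 each of 9 genes of mitochondrial DNA transcription and replication and 9 regulators of mitochondrial biogenesis. In liver against fat, the counts in the same order were 8 and 0, 14 and 4, 13 and 0, 13 and 2, 8 and 1, and 4 and 4. Ppargc1a, a coactivator that drives mitochondrial biogenesis, had a difference of 3.93 between muscle and fat.

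Between 8 and 35 weeks, the clearest shift was in visceral fat, where 21 of the 75 genes were higher at 35 weeks and 0 were lower, with Wt and Akt1+/- mice averaged. Over all genes, 19.4% were called for age in fat, 10% higher and 9.37% lower. The median difference was 0.15 over the 75 genes and 0.01 over all genes, and 67 of the 75 were above 0. At an unadjusted p below 0.05, 33 of the 75 genes passed, against 6272 of all 18223 genes. The mean level of the 75 genes on an array was 2.31 ± 0.10 in Wt (SD, n = 3) and 2.22 ± 0.04 in Akt1+/- mice (n = 3) at 8 weeks, and 2.41 ± 0.04 (n = 4) and 2.45 ± 0.09 (n = 4) at 35 weeks. The count was 15 to 24 when any array was left out and 17 to 31 under the other alternatives, with 0 genes lower in all of the latter.

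Markers of other cell types were read in the same fat arrays, and with the genotypes pooled the ranges of each list overlapped between the ages. In Wt fat alone, 8 before 35 weeks, erythroid (6.95 to 8.03 and 6.09 to 6.71) and cell cycle genes (−0.01 to 0.62 and −1.02 to −0.38) did not overlap. Nor did lymphocyte (−0.76 to −0.38 and −0.35 to 0.74) and steroidogenic genes (−0.97 to −0.56 and −0.29 to −0.08). In Akt1+/- fat these lists overlapped, and hepatocyte genes did not (−1.70 to −0.56 and −0.30 to 1.18). The summed level of 4 erythroid genes was 6.62 to 8.03 at 8 weeks and 5.55 to 7.21 at 35 weeks, and that of 4 cell cycle genes −0.31 to 0.76 and −1.45 to 0.10. The 6 lymphocyte genes summed to −0.76 to −0.09 at 8 weeks and −0.35 to 0.74 at 35 weeks, and the 5 macrophage genes to 7.70 to 8.04 and 7.72 to 8.16. The 4 genes of brown adipocytes, which are rich in mitochondria, summed to −0.09 to 3.50 at 8 weeks and −0.29 to 4.23 at 35 weeks. Of these, Ucp1, which uncouples respiration to make heat, was at −5.16 to −1.73 and −6.31 to 1.56, with the highest value of both in Akt1+/- arrays at 35 weeks, and Zic1 was not well above background on any fat array. The 6 skeletal muscle genes summed to 3.94 to 6.65 at 8 weeks and 4.41 to 6.43 at 35 weeks, and the 5 adipocyte genes to 10.29 to 10.67 and 10.09 to 10.73. Of the muscle genes, Myh4 was at −7.82 to −4.21 at 8 weeks and −3.78 to 1.32 at 35 weeks, without overlap, whereas Acta1 and Ckm overlapped. Myh4 was not well above background on any 8-week Akt1+/- fat array. The part of these markers in the age difference was not tested. Fat of the 2 ages was never scanned on the same day, so that scan day and age cannot be told apart.

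Mrpl30 and Mrps27 had the smallest adjusted p-values for age in fat. Mrpl30, a large subunit protein with a bacterial counterpart, was at 2.80, 2.84 and 2.63 in Wt and 2.57, 2.64 and 2.54 in Akt1+/- fat at 8 weeks. At 35 weeks it was at 3.08, 3.02, 3.11 and 3.06 in Wt and 3.15, 3.36, 3.11 and 3.21 in Akt1+/- fat. All 35-week arrays lay above all 8-week arrays, with a difference of 0.46 (SE 0.06, adjusted p = 5.5e-04), whereas the difference was 0.01 in liver and −0.11 in muscle, neither called.

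Mrps27, a pentatricopeptide repeat protein of the small subunit, was at −0.78, −0.81 and −0.85 in Wt and −1.07, −1.08 and −0.88 in Akt1+/- fat at 8 weeks. At 35 weeks it was at −0.46, −0.42, −0.44 and −0.61 in Wt and −0.53, −0.43, −0.41 and −0.45 in Akt1+/- fat. The ages did not overlap, with a difference of 0.44 (SE 0.06, adjusted p = 6e-04). In liver the same gene fell. The 8-week livers were at 0.47, 0.57 and 0.89 (Wt) and 0.25, 0.52 and 0.33 (Akt1+/-), and the 35-week livers at 0.37, 0.17, 0.31 and 0.41 (Wt) and −0.03, 0.14, 0.11 and 0.20 (Akt1+/-). The ages did not overlap within a genotype and overlapped with the genotypes pooled, and the difference was −0.30 (SE 0.08, adjusted p = 0.0154).

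Mrps18b had the largest called difference in fat, 0.60 (SE 0.13, adjusted p = 0.0087). It was at −1.29, −1.31 and −1.41 in Wt and −1.43, −1.14 and −0.53 in Akt1+/- fat at 8 weeks. At 35 weeks it was at −0.73, −0.86, −0.35 and −0.84 in Wt and −0.42, −0.66, −0.39 and −0.38 in Akt1+/- fat. A single 8-week Akt1+/- array, at −0.53, lay within the 35-week range. The other probe of Mrps18b that passed the filter differed by −0.25, and with the mean of all probes the gene was no longer called.

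After Mrps18b, Mrpl30 and Mrps27, the next highest called differences for age in fat were those of Mrps36 (0.42), Mrps10 (0.39) and Mrps23 (0.36). These are given beyond the naming rule for this comparison. The lowest called were those of Mrpl24 (0.23), Mrpl35 (0.21) and Mrps17 (0.17). The calls of Mrps17 and Mrpl35 were lost under 16 and 8 of 24 alternatives. Of the 29 small subunit genes 12 were called, with a median of 0.21, and of the 46 large subunit genes 9, with a median of 0.13. No stalk gene of 5 was called, and 1 of 6 central protuberance genes and 1 of 8 tunnel exit genes were. Of the genes with a bacterial counterpart 11 of 44 were called and of those found only in mitochondria 8 of 26. Of 8 called genes with several passing probes, all probes had the same direction for 4.

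Mrps10, a small subunit protein, was called higher at 35 weeks in all 3 tissues. In fat it was at 2.43, 2.61 and 2.50 (Wt) and 2.29, 2.22 and 2.54 (Akt1+/-) at 8 weeks and at 2.86, 2.95, 2.82 and 2.69 (Wt) and 2.70, 2.94, 2.76 and 2.85 (Akt1+/-) at 35 weeks. In muscle it was at 3.38, 3.36 and 3.40 and at 3.54, 3.56 and 3.52 at 8 weeks and at 3.89, 3.90, 3.72 and 3.83 and at 3.89, 3.93, 3.63 and 3.88 at 35 weeks, Wt before Akt1+/-. The ages did not overlap in fat or in muscle. In liver, where it was at 3.34, 3.45 and 3.62 and at 3.46, 3.79 and 3.51 at 8 weeks and at 3.86, 4.03, 3.98 and 4.01 and at 3.83, 4.02, 3.68 and 3.65 at 35 weeks, they overlapped in the Akt1+/- arrays. The differences were 0.39 in fat (SE 0.07), 0.37 in muscle (SE 0.06) and 0.36 in liver (SE 0.08). The liver call was lost with median scaling. Mrpl46, of the central protuberance, was the other gene called in all 3 tissues, with 0.30 in fat, 0.24 in liver and 0.23 in muscle. Its calls in liver and muscle were close to the threshold (adjusted p = 0.0446 and 0.042, limma). With median scaling it was not called higher in liver.

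**Figure D4:**
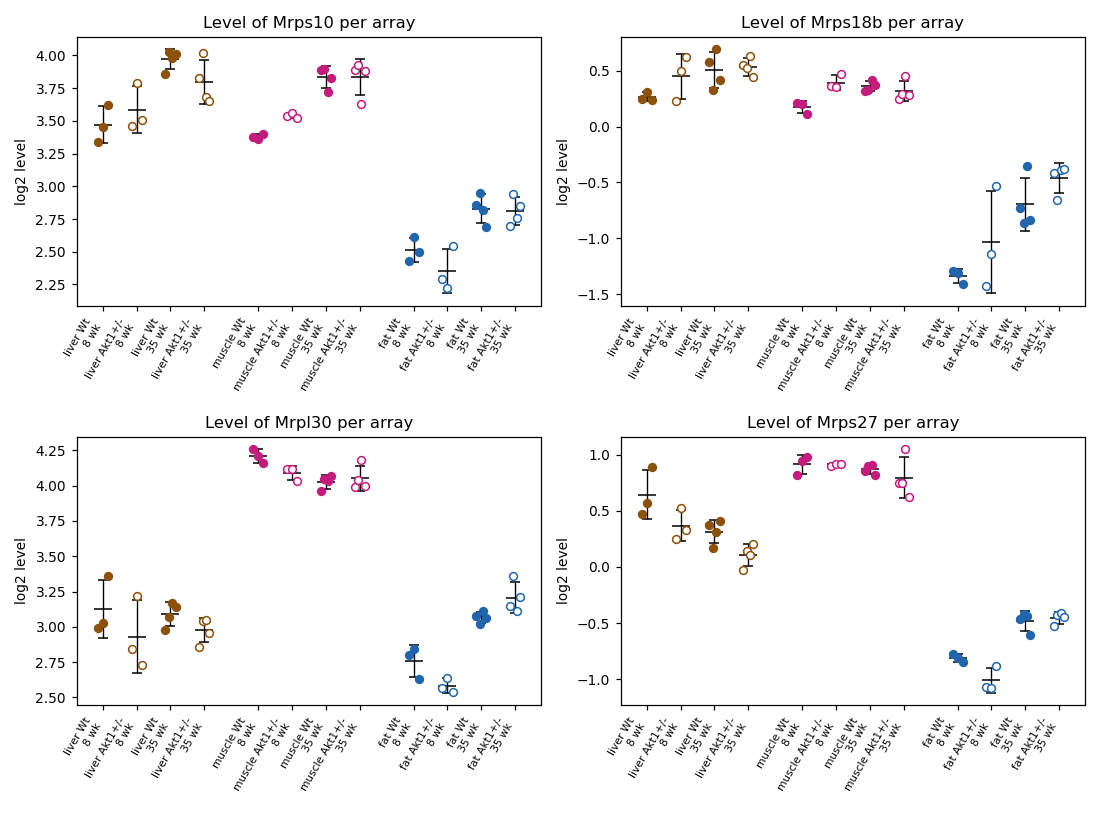
Log2 level of Mrps10, Mrps18b, Mrpl30 and Mrps27 on each array relative to the 75th percentile of the array, by tissue, genotype and age. Filled points are Wt and open points Akt1+/-, with bars at the group mean ± SD (n = 3 at 8 weeks and 4 at 35 weeks). Mrps10 lies higher at 35 weeks in all 3 tissues, whereas Mrpl30 does so in fat, and Mrps27 is higher at 35 weeks in fat and lower in liver.

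In liver, 14 of the 75 genes were called for age, 10 higher and 4 lower at 35 weeks, against 34.8% of all genes, 19.7% higher and 15% lower. The median difference was 0.04 over the 75 genes and 0.01 over all genes. Mrpl15 (0.51, SE 0.09), Mrps22 (0.43, SE 0.12) and Mrps10 rose the most, and Mrpl1 (−0.50, SE 0.10), Mrpl50 (−0.30) and Mrps27 fell the most, with Mrpl12 at −0.23. The other 2 probes of Mrpl1 differed by 0.04 and −0.01. The other probe of Mrpl50 differed by 0.47, and the mean of all probes turned Mrpl50 to 0.09. Of 6 called genes with several passing probes in liver, all probes had the same direction for 2. With median scaling the median of all genes in liver moved to −0.18, and 26 of the 75 genes were called, 1 higher and 25 lower, so that the split of directions in liver rests on the scaling. In the same livers, with the genotypes pooled, macrophage genes summed to 5.52 to 6.56 at 8 weeks and 6.28 to 7.05 at 35 weeks. Lymphocyte genes summed to −0.10 to 0.93 and 0.53 to 1.54, and adipocyte genes to 2.82 to 3.17 and 2.15 to 2.81, the last without overlap. In Wt livers alone, macrophage (5.52 to 5.95 and 6.54 to 6.85) and lymphocyte genes (−0.10 to 0.34 and 0.75 to 1.29) did not overlap, and in Akt1+/- livers they did. The part of these markers in the age difference was not tested.

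In muscle, 19 genes were called for age, 13 higher and 6 lower at 35 weeks, against 31.3% of all genes, 16.7% higher and 14.6% lower. The median difference was 0.05. Mrpl14 (0.40, SE 0.07), Mrps10 and Mrpl28 (0.33, SE 0.07) rose the most, and Mrpl1 (−0.40, SE 0.06), Mrpl32 (−0.33, SE 0.05) and Mrpl4 (−0.32, SE 0.08) fell the most. The other probes of Mrpl1 differed by 0.02 and −0.002. Of 8 called genes with several passing probes in muscle, all probes had the same direction for 6. With median scaling 6 were called higher and 7 lower. All 6 genes that fell were of the large subunit. Of the 13 genes that rose, 4 were of the small subunit and the rest, Mrpl14 and Mrpl28 among them, of the large subunit. Steroidogenic genes in the same muscle arrays summed to −0.86 to −0.58 at 8 weeks and −0.14 to 1.27 at 35 weeks, without overlap. In Wt muscle alone, adipocyte genes (7.24 to 7.49 and 7.68 to 8.02) did not overlap, nor did skeletal muscle (rising) and erythroid genes (falling). In Akt1+/- muscle the adipocyte, skeletal muscle and erythroid lists overlapped, and cell cycle genes did not. The part of these markers in the age difference was not tested.

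Over the 3 tissues, 40 of the 75 genes were called for age in at least 1 tissue, 28 in a single tissue, 10 in 2 and 2 in all 3. Opposite directions were called for 2 genes, Mrps27 (lower in liver, higher in fat) and Mrpl50 (lower in liver, 0.17 higher in muscle). The other passing probe of Mrpl50 had age differences of 0.47 in liver and 0.169 in muscle, both above 0. The opposite directions of Mrpl50 thus rest on the probe used. The difference in age effect between tissues was tested in the fit over all arrays. The age difference was lower in muscle than in fat for 17 genes and higher for 0, against 16.4% of all genes, 7.82% lower and 8.61% higher. The largest were Mrpl47 (−0.61), Mrpl30 (−0.57) and Mrps18b (−0.55), and the smallest named were Mrps23 (−0.34), Mrpl24 (−0.32) and Mrpl22 (−0.28). For Mrpl47 a single Wt fat array at 8 weeks was at −1.52, and the others of that group were at −0.23 and −0.40. The other passing probe of Mrpl47 had age differences of 0.267 in muscle and 0.115 in fat. That of Mrps18b had −0.0911 in muscle and −0.245 in fat. By these probes the age difference was higher in muscle than in fat, opposite to the direction given, so both results rest on the probe used. Liver and fat differed for 5 genes, all lower in liver (16.2% of all genes, 6.34% lower and 9.87% higher): Mrps27 (−0.74, adjusted p = 1.3e-06, limma), Mrpl30 (−0.46), Mrps18b (−0.44), Mrps21 (−0.35) and Mrpl38 (−0.33). Liver and muscle differed for 8 genes, 4 in each direction (18.8% of all genes, 9.06% lower and 9.74% higher). These ran from Mrpl50 (−0.47) and Mrpl14 (−0.41) to Mrps11 (0.41) and Mrps22 (0.48). By the other probe of Mrpl50 the age difference was higher in liver than in muscle, opposite to the direction given.

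Of the complex I genes, 10 of 35 were called higher with age in fat and 0 lower, with a median of 0.25. Their mean level on an array was 4.49 ± 0.26 in Wt (SD, n = 3) and 4.21 ± 0.08 in Akt1+/- fat (n = 3) at 8 weeks and 4.57 ± 0.05 (n = 4) and 4.57 ± 0.15 (n = 4) at 35 weeks. Of the cytosolic ribosomal proteins, 21 of 84 were called higher and 0 lower, with a median of 0.15. Their mean level was 5.40 ± 0.08 and 5.74 ± 0.07 in Wt fat at 8 and 35 weeks, and 5.59 ± 0.03 and 5.59 ± 0.11 in Akt1+/- fat. In muscle, 40 cytosolic ribosomal protein genes were called higher and 2 lower. In fat, 6 of 19 assembly factors were called higher and 0 lower. The counts called higher and lower in fat were 3 and 1 of 15 translation factors, 3 and 1 of 17 tRNA synthetases, 1 and 0 of 8 ribosome components under other names, and 1 and 1 of both the transcription genes and the regulators. Tfam, which packages and transcribes mitochondrial DNA, rose with age in liver (1.24) and muscle (0.68), whereas in fat its difference of −0.24 was not called.

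The study asked how loss of an Akt1 copy affects gene expression in these tissues. For genotype, averaged over both ages, liver had 1 of the 75 genes called, muscle 0 and fat 0. Over all genes, the share called was 6.03% in liver (2.47% lower and 3.56% higher in Akt1+/- mice), 0% for muscle and 0.829% for fat. At an unadjusted p below 0.05, liver had 11 genes, muscle 5 and fat 7. Over all genes these counts were 4557 of 17389, 3124 of 17005 and 3504 of 18223. The methods' two-way test with Benjamini-Hochberg adjustment called 1, 0 and 0 of the 75. The 95% interval of the difference lay within 0.5 log2 units on either side of 0 for 74 of the 75 genes in liver, for all 75 in muscle and for 71 in fat. These intervals bound the differences and do not show that the genotypes were alike.

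**Figure D5:**
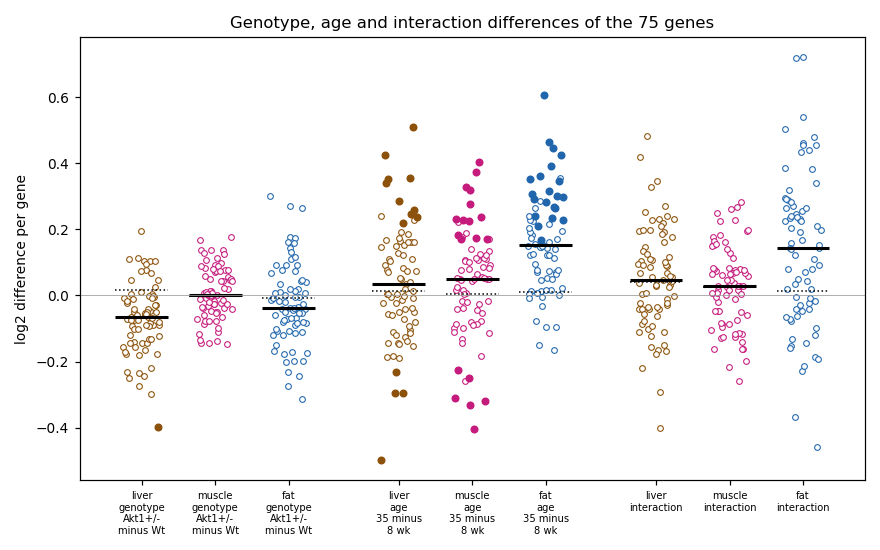
Log2 difference of each of the 75 genes for genotype (Akt1+/- minus Wt, both ages averaged), age (35 minus 8 weeks, both genotypes averaged) and their interaction (genotype difference at 35 weeks minus that at 8 weeks) in liver, muscle and fat. Filled points are called genes, thick lines the median of the 75 genes and dotted lines the median of all genes. For age in fat all 21 called genes lie above 0, and for genotype a single gene, Mrpl23 in liver, is called.

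In liver, 59 of the 75 genes were below 0, with a median of −0.07 against 0.02 over all genes, and this median was 0.00 with normexp and quantile normalization. Markers of several cell types differed between the same livers at 8 weeks without overlap. Wt before Akt1+/-, the summed level was 10.71 to 10.92 and 10.43 to 10.54 for 4 hepatocyte genes, 5.52 to 5.95 and 6.21 to 6.56 for 5 macrophage genes, −0.10 to 0.34 and 0.73 to 0.93 for 6 lymphocyte genes, and −2.16 to −1.54 and −1.27 to 0.30 for 4 cell cycle genes. At 35 weeks the ranges of these 4 lists overlapped, and their part in the genotype difference was not tested. The gene called was Mrpl23, a tunnel exit protein, which was lower in Akt1+/- liver, with a difference of −0.40 (SE 0.09, adjusted p = 0.033, 1.32-fold). The 8-week livers were at 4.79, 4.88 and 4.97 (Wt) and 4.68, 4.13 and 4.35 (Akt1+/-), and the 35-week livers at 4.62, 4.97, 4.76 and 4.83 (Wt) and 4.31, 4.49, 4.64 and 4.56 (Akt1+/-). The genotypes overlapped at 35 weeks through a single array of each, at 4.64 and 4.62, and at 8 weeks they did not. Blocking on the replicate of the 35-week arrays alone, where the numbers paired the arrays, kept the call (adjusted p = 0.0392, limma). The call was lost under 13 of 26 alternatives, leaving out each array included. Among these were such a block at both ages, the slide as a block, no filter on dim probes, normexp, and leaving out any of 8 of the 14 arrays. With median scaling, under which the median of all genes was −0.11, 22 of the 75 genes were called lower. At 8 weeks the median over the 75 genes was −0.11 and it was −0.02 without a single Wt array, replicate 3.

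Of the complex I genes, 6 of 35 were called lower in Akt1+/- liver, with a median of −0.21, and of the cytosolic ribosomal proteins 16 of 83, with a median of −0.20. Among the partner lists, Mrm1, a methyltransferase of mitochondrial ribosomal RNA, was lower (−0.40), and 2 of the 8 components under other names were lower, among them Chchd1 (−0.30). Ppargc1b, a coactivator related to Ppargc1a, was higher (0.47). No translation factor, tRNA synthetase or transcription gene was called in liver. The slides of Wt and Akt1+/- liver were different at both ages, so the effects of slide and genotype there cannot be told apart.

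In muscle the median was 0.00, and the 2 highest and 2 lowest differences were 0.18 for Mrps35, 0.17 for Mrpl51, −0.15 for Mrps14 and −0.14 for Mrps17, none called. In fat the median was −0.04, and the values were 0.30 for Mrpl47, 0.27 for Mrps18a, −0.31 for Mrps25 and −0.27 for Mrpl39, none called. The genotypes of 35-week muscle lay on different slides, and those of 35-week fat on different slides and scan days. At that age these effects cannot be told apart from genotype. The genotype difference differed between liver and fat for 2 genes, Mrps16 (−0.41) and Mrpl23 (−0.36), against 4.29% of all genes. Between liver and muscle and between muscle and fat the genotype difference differed for 0 genes by limma (0.906 and 0.734% of all genes). At an unadjusted p below 0.05, 8 and 9 of the 75 passed, against 3219 and 3086 of all 19762 genes.

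At each age taken alone, 0 of the 75 genes were called for genotype in liver or muscle by limma or the two-way test. Over all genes, 2.21% were called in liver at 8 weeks and 3.4% at 35 weeks, and 0 and 0.1% in muscle (limma). At an unadjusted p below 0.05, 9 and 5 of the 75 passed in liver, against 3621 and 2935 of all 17389 genes. In muscle 7 and 0 passed, against 2665 and 1551 of all 17005 genes. In fat 1 gene was called at 8 weeks (1.87% of all genes) and 0 at 35 weeks (1.7%). There, at 35 weeks, 6 genes passed without adjustment (2242 of all 18223 genes) and the two-way test called 1. The gene called was Mrpl39, a large subunit protein near the tunnel exit, lower in Akt1+/- fat with a difference of −0.51 (SE 0.10, adjusted p = 0.038). Wt arrays were at 2.51, 2.63 and 2.44 and Akt1+/- arrays at 1.98, 2.10 and 1.95, without overlap. At 35 weeks they were at 2.34, 2.42, 2.32 and 2.35 and at 2.10, 2.37, 2.34 and 2.48, with overlap. On the only slide that held fat of both genotypes, with 3 Akt1+/- arrays and 1 Wt array, the 8-week difference was −0.43. The call was lost under 10 of 26 alternatives, leaving out each array included. Among these were median scaling, no filter and replicate blocks at both ages. It was kept with blocks at 35 weeks alone (adjusted p = 0.0479, limma). Between the same 8-week fat groups, Wt before Akt1+/-, the summed level was 4.27 to 4.79 and 4.93 to 5.55 for 3 mesothelial genes, 6.95 to 8.03 and 6.62 to 6.92 for the erythroid genes, 0.46 to 3.18 and −1.70 to −0.56 for the hepatocyte genes and −0.97 to −0.56 and −0.47 to −0.42 for 4 steroidogenic genes, all without overlap. Cd68, a macrophage marker, was at 1.57 to 2.04 and 2.21 to 2.70, whereas the macrophage sum overlapped at 7.70 to 7.93 and 7.84 to 8.04. Their part in the difference was not tested.

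The genotype difference changed with age for 0 of the 75 genes in each tissue (limma), against 0.529% of all genes for liver, 0% for muscle and 1.54% for fat. At an unadjusted p below 0.05, 3, 3 and 15 genes passed, against 2400 of 17389, 1407 of 17005 and 3671 of 18223 over all genes. The two-way test called 0, 0 and 1 of the 75. In fat the median interaction was 0.14, against 0.01 over all genes, with medians of −0.12 at 8 weeks and 0.03 at 35 weeks for the genotype difference itself. The highest values in fat were 0.72 for Mrps6, with a 95% interval from −0.37 to 1.81, and 0.72 for Mrpl37 (adjusted p = 0.068), and the lowest were −0.46 for Mrpl52 and −0.37 for Mrpl47. In liver they were 0.48 for Mrpl44, 0.42 for Mrpl9 and −0.40 for Mrpl15, and in muscle 0.28 for Mrpl44, 0.27 for Mrps21, −0.26 for Mrps18b and −0.22 for Mrpl41. Cytosolic ribosomal proteins in fat had a median interaction of −0.29, with 0 called higher and 11 lower. The number of 75 genes called for the interaction in fat was 2 without Wt replicate 1 or 3 at 8 weeks and 3 without Akt1+/- replicate 1 at 35 weeks.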

How the data were processed

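RNA of 42 samples was measured on single-colour arrays. The authors deposited the scanner output of Agilent Feature Extraction (9.5 by the file headers, 9.1 by the submitters' processing notes), whose processed intensity is background-subtracted and not normalized between arrays, and a table of log2 values of the whole series, used as an alternative. Authors' fold changes were not in these files. Here, the processed intensity was put on the log2 scale, centred on the 75th percentile of its array and modelled with limma 3.58.1 (R 4.3.3), with 1 mean per group, for each tissue (14 arrays) or, between tissues, over all 42 arrays. A probe had to pass the scanner's background flag on at least 3 arrays of a group, and the brightest of a gene's probes over all arrays was kept. Precision is limited by the number of arrays. Members, gene lists and tests were chosen with earlier results of these data known. Named genes were, per comparison, the 3 highest and 3 lowest called (2 and 2 where none was), and members fixed for their roles. The brightest and dimmest genes of that rule are not given, since levels of different probes are not comparable. Replicate numbers paired the arrays of the 2 genotypes at 35 weeks and not at 8 weeks, by the correlation of deviations from group means over genes: same-numbered arrays had correlations from 0.11 to 0.52 at 35 weeks (12 pairs) and −0.20 to 0.07 at 8 weeks (9 pairs). The labels do not say what a number shares. The fits reported have no block, and one with the number as a block at 35 weeks alone was added after the data were seen. Calls were tested on simulated data with independent noise for each gene and array. These data held no effect of slide, scan day or replicate number, so that test cannot show how such effects act on the calls. Tables were handled with Python 3.11.15, pandas 2.3.3, numpy 2.4.6 and scipy 1.17.1, and figures drawn with matplotlib 3.10.9. Coordinates of probes are on mm8 and of promoters on GRCm38.p6, and were not converted. Alternatives were median scaling, normexp (offset 50) with quantile normalization, the deposited log2 table, other filters, the mean of all probes, the probe brightest within the tissue, the methods' two-way test, 1 fit over all arrays, Wt arrays only, replicate or slide as a block, and leaving out each array. The background flags of single erythroid markers are not reported here.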

Additional observations from a re-analysis of the deposited data

Results flagged for a closer look

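In the groups of 4 arrays at 35 weeks, the highest or lowest array of a gene was compared with the gap to its neighbour by Dixon's criterion, which chance meets in about 1 in 20 groups. Of the 75 genes, 6 met it in Wt muscle, 4 in Akt1+/- muscle, 3 in Wt liver, 1 in Akt1+/- liver, 3 in Wt fat and 6 in Akt1+/- fat. Among the genes that the naming rule covers, the arrays that stood apart were, in Wt fat, replicate 3 for Mrpl1 (1.74), Mrpl51 (4.44) and Mrps16 (4.47). In Akt1+/- fat they were replicate 1 for Mrpl2 (0.80), Mrps25 (0.06) and Mrps6 (4.21), and replicate 2 for Mrpl35 (2.64) and Mrps18b (−0.66). In Wt muscle they were replicate 3 for Mrpl3 (4.91), Mrps14 (3.10) and Mrps22 (1.43) and replicate 1 for Mrpl37 (2.67). In Akt1+/- muscle they were replicate 3 for Mrpl4 (2.28), Mrps10 (3.63) and Mrps5 (3.70) and replicate 2 for Mrps18c (2.69). In Wt liver they were replicate 1 for Mrpl20 (5.38) and Mrps28 (4.15).

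Effects that differed between tissues by a test of the difference (limma, adjusted p below 0.05) were those of age for 8 of the 75 genes between liver and muscle, 5 between liver and fat and 17 between muscle and fat, and those of genotype for 2 genes between liver and fat. This test was added after the data were seen. Between liver and muscle, the differences in age effect were −0.47 for Mrpl50, −0.41 for Mrpl14, −0.36 for Mrps16, 0.31 for Mrpl22, 0.41 for Mrps11 and 0.48 for Mrps22. Between liver and fat they were −0.74 for Mrps27, −0.46 for Mrpl30, −0.44 for Mrps18b, −0.35 for Mrps21 and −0.33 for Mrpl38. Between muscle and fat they were −0.61 for Mrpl47, −0.57 for Mrpl30, −0.55 for Mrps18b, −0.34 for Mrps23, −0.32 for Mrpl24 and −0.28 for Mrpl22. The genotype effect differed between liver and fat by −0.41 for Mrps16 and −0.36 for Mrpl23. By another passing probe, the age effect differed in the opposite direction for Mrpl50 between liver and muscle. The same held for Mrpl47 and Mrps18b between muscle and fat.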

How the results depend on the processing

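Counts of the 75 genes called between tissues ranged over the alternatives from 58 to 70 (liver and muscle), 68 to 74 (liver and fat) and 72 to 74 (muscle and fat). The cause of the changes below was not tested. In 1 fit over all arrays, the counts became 6 (genotype in liver), 22 (age in liver), 1 (interaction in liver), 3 and 2 (genotype in liver at 8 and 35 weeks), 1 (genotype in fat), 7 (interaction in fat), and 7 and 1 (genotype in fat at 8 and 35 weeks). With median scaling they became 22 (genotype in liver), 26 (age in liver), 1 and 5 (genotype in liver at 8 and 35 weeks) and 0 (genotype in fat at 8 weeks). For effects compared between tissues, median scaling gave 15 (age, liver and muscle), 34 (age, liver and fat), 1 (genotype, liver and muscle) and 9 (genotype, liver and fat). With normexp and quantile normalization the counts became 23 (age in liver), 1 (genotype in liver at 8 weeks), 1 (genotype in fat), 4 (interaction in fat), 6 (genotype in fat at 8 weeks), 26 (age effect, muscle and fat), 1 (genotype effect, liver and muscle) and 2 (genotype effect, muscle and fat). Without a filter on dim probes they were 0 (genotype in liver), 0 (genotype in fat at 8 weeks) and 1 (genotype effect, liver and fat), and with probes above background on every array 1 (genotype effect, liver and muscle). With replicate blocks at both ages they were 0 (genotype in liver), 0 (genotype in fat at 8 weeks), 13 (age effect, liver and muscle), 1 (genotype effect, liver and muscle) and 4 (genotype effect, liver and fat). With the number as a block at 35 weeks alone, where it paired the arrays, no call of the 75 genes or of Akt1 for genotype or interaction changed, while over all genes the count called became 46 against 0 (genotype in muscle), 94 against 151 (genotype in fat), 33 against 17 and 202 against 309 (genotype at 35 weeks in muscle and fat), 48 against 92 (interaction in liver) and 165 against 281 (interaction in fat). With the slide as a random block the counts of the 75 genes were 0 (genotype in liver), 1 (interaction in fat), 2 (genotype in fat at 8 weeks), 1 (genotype effect, liver and fat) and 10 (age effect, muscle and fat). The mean of all probes gave 1 (interaction in fat) and 2 (genotype in fat at 8 weeks), and the methods' two-way test 1 (interaction in fat) and 1 (genotype in fat at 35 weeks).

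The genotype difference of Akt1 in muscle passed the threshold in 1 fit over all arrays (−0.59) and with the slide as a block (−0.58), and ranged from −0.65 to −0.53 when an array was left out. That in fat did not pass with normexp (−0.14) or with the replicate block (−0.45). Signs turned for Mrpl50 (age in liver, 0.0875 with the mean of all probes), Mrpl24 (muscle against fat, −0.0459 with normexp) and Mrpl52 (muscle against fat, −0.87 with the mean of all probes and −0.13 with normexp).

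When each array was left out in turn, the counts ranged from 0 to 2 for genotype in liver, 0 to 1 for genotype in liver at 8 weeks, 0 to 3 for the interaction in fat, 0 to 4 for genotype in fat at 8 weeks, 1 to 4, 0 to 2 and 0 to 1 for the genotype effect between liver and fat, liver and muscle, and muscle and fat, and 4 to 9 and 6 to 12 for the age effect between liver and fat and liver and muscle. Age counts ranged from 10 to 18 in liver, 14 to 22 in muscle and 15 to 24 in fat. The genotype call in liver was lost without Akt1+/- replicate 1 or 4 at 35 weeks or 3 at 8 weeks, or Wt replicate 2, 3 or 4 at 35 weeks or 2 or 3 at 8 weeks, and 2 genes were called without Wt replicate 1 of either age. All 75 probes were well above background on all arrays.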
